A study of Bos taurus and Ovis aries and Capra hircus with 18 samples.

Results

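The proteasome subunit genes were followed through adult brain and adult muscle of cattle, sheep and goat. The set was a list of 38 genes: 7 subunits of the alpha ring, 7 constitutive and 3 immune-inducible subunits of the beta ring, 6 ATPases and 3 other subunits of the base, 8 subunits of the lid and 4 activators. The count files hold identifiers only, so cattle genes received symbols by their position, and sheep and goat partners were found by exon lengths and gene order. All 38 were named among 27607 cattle gene models, 38 had a goat partner and 37 a sheep partner, so that 37 of the 14697 genes matched in the 3 species were subunits. PSMA6 had no sheep partner. In sheep, 6 of its 7 exon lengths lay inside the 23-exon model that matched PRORP, the gene for a mitochondrial RNA-processing enzyme, so a sheep value for PSMA6 is not given.

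The study took 3 libraries, lettered A to C, from each of 6 groups: cattle brain, sheep brain, goat brain, cattle muscle, sheep muscle and goat muscle. All came from frozen tissue of adults with no treatment named, and the labels give neither the brain region nor the muscle. Poly(A)-selected RNA was sequenced and counted per gene on each species' own gene models. The labels do not say that letters stand for separate animals, so p-values measure only the spread between these samples.

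The proteasome degrades proteins tagged with ubiquitin. Its barrel-shaped core is built from outer alpha rings, which gate the entrance, and inner beta rings, in which PSMB5, PSMB6 and PSMB7 carry the cutting sites, and under interferon PSMB8, PSMB9 and PSMB10 can take their places to form the immunoproteasome. The regulatory cap has a base of ATPases that unfold the substrate and a lid that removes ubiquitin, while PSME1 and PSME2 (PA28 alpha and beta), PSME3 (PA28 gamma) and PSME4 (PA200) form alternative caps. In muscle the ubiquitin-proteasome pathway is known as a main route of myofibrillar protein breakdown, and in brain it takes part in the turnover of synaptic proteins.

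Library totals ran from 20730803 to 58514630 counts, with 17204 to 20221 genes having counts. Each neuron, astrocyte and oligodendrocyte marker in the lists was higher in brain over the 3 species and each of the 7 muscle fibre markers was higher in muscle, so the markers matched the tissue labels. Among the brain libraries of sheep, library C was unlike the others, with a mean Spearman correlation of 0.849 with the other sheep brain libraries, and goat muscle C was next (0.936). Some results that rest on these libraries are given with and without them. Levels are counts scaled to library size (CPM) after trimmed-mean (TMM) scaling, tissue differences are log2 of brain over muscle with their standard error, and the word called is kept for genes whose p in edgeR's quasi-likelihood test, adjusted by Benjamini and Hochberg over all genes, was below 0.05.

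Most subunits were higher in muscle than in brain. In cattle 34 of 38 were called higher in muscle and 0 in brain, where 35.1% and 40.4% of all tested genes were called in these directions. In goat the counts were 33 and 0 of 38 against 26.8% and 34.1% of all genes. In sheep 9 of 37 were called higher in muscle and 1, PSMB10, in brain, against 20.1% and 29.3%, and without sheep brain C these became 32 and 1 of 37 against 34.5% and 39.5%. Over the 3 species 35 of 37 were higher in muscle and 1 in brain, against 35.6% and 39.8%, and PSME3 alone was not called. The median subunit stood at a log2 of -1.51 in cattle, -0.56 in sheep, -1.37 in goat and -1.27 over the 3 species, beside all-gene medians of 0.09, 0.17, 0.12 and 0.07. At 2-fold or more, 27 of 38 subunits were higher in muscle in cattle (25.3% of all genes; 33.9% in brain), 8 of 37 in sheep (19.1%, and 28.6% in brain), 30 of 38 in goat (23.2%, and 31.4% in brain) and 23 of 37 over the 3 species (23.3%). Every muscle library lay above every brain library for 35 of 38 subunits in cattle (36.8% of all genes), 16 of 37 in sheep (31.2%) and 36 of 38 in goat (29.6%). The opposite order was seen for 0, 1 and 0 subunits, beside 42.6%, 34.9% and 38.5% of all genes. The 9 subunits called higher in muscle in each species, beside 14.5% of all genes, were PSMA1, PSMA2, PSMA3, PSMC2, PSMC6, PSMD6, PSMD7, PSMD11 and PSME4, and 0 were called higher in brain in each, beside 21.8%. In bulk tissue fewer cells of a type and less RNA per cell cannot be told apart, and the same holds here for a rise of subunit RNA and a fall of other RNA.

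The scaling set where zero lies. With library totals in place of TMM the all-gene median moved to 0.76 in cattle, 1.11 in sheep, 0.86 in goat and 1.02 over the 3 species. A change of scaling shifts all genes of a comparison by nearly the same amount, so the distance of the subunits from the all-gene median is fixed by construction and is no test of stability. Their median minus the all-gene median was -1.60, -0.76, -1.48 and -1.34 (-0.73 in sheep with TMM), with 37 of 38, 34 of 37, 37 of 38 and 36 of 37 members below the all-gene median. The counts of calls, which are read against zero, became 27 higher in muscle and 3 in brain in cattle (20.5% and 53.2% of all genes), 1 and 6 in sheep (9.67% and 47.2%), 20 and 1 in goat (14.9% and 49.1%), and 16 and 8 over the 3 species (15.1% and 62.7%). With library totals the 8 called higher in brain over the 3 species were PSMB10, PSMC1, PSMD1, PSMD2, PSMD8, PSMD13, PSME1 and PSME3. Directions below are on the TMM scale, and sign changes with library totals are given at the end.

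**Figure D1:**
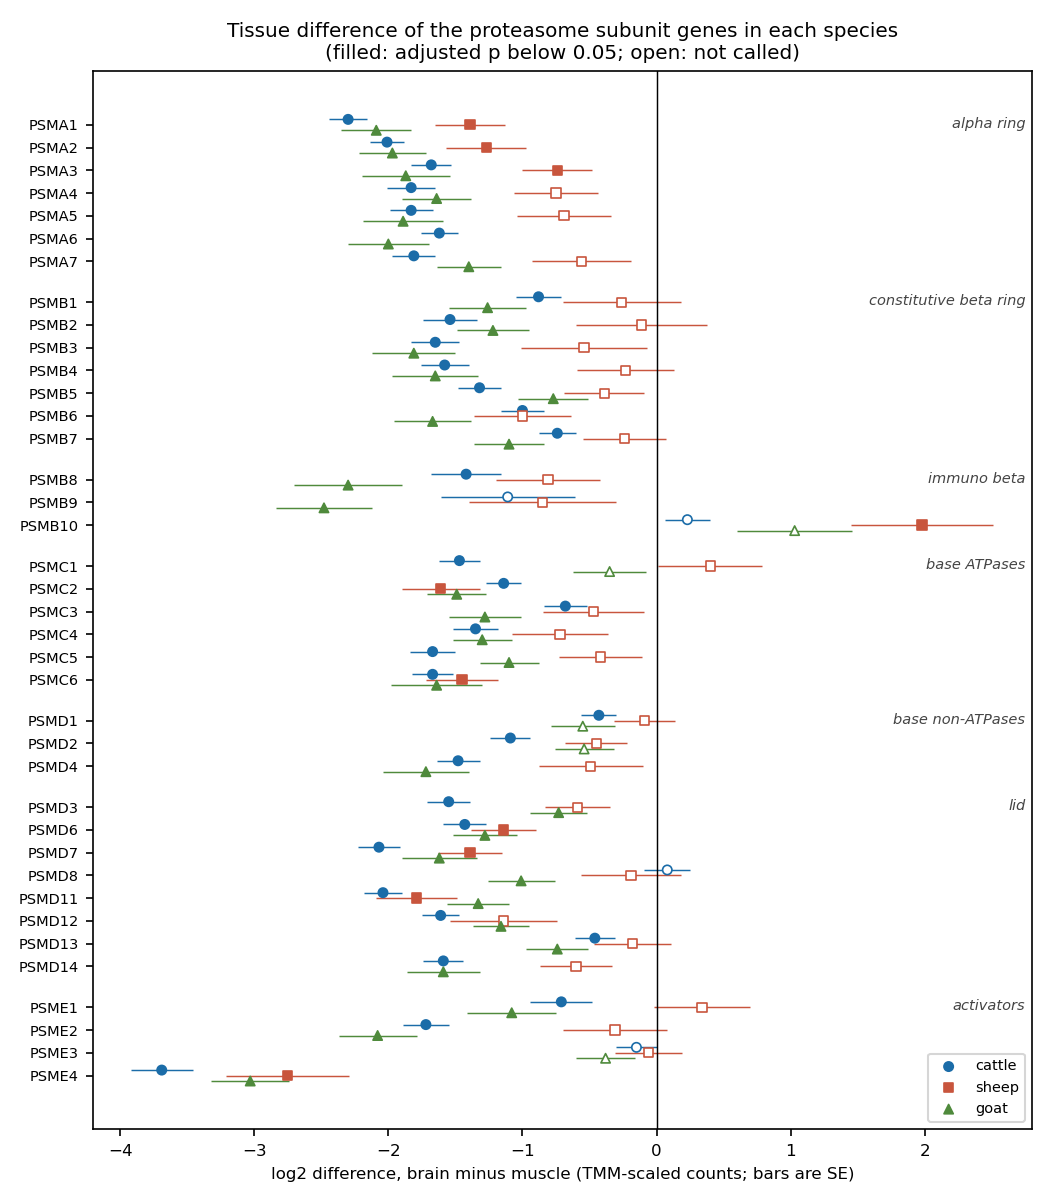
Log2 difference between brain and muscle for each proteasome subunit gene (rows, grouped by role) in cattle, sheep and goat, with standard errors; filled symbols passed the test. Most symbols lie left of zero, PSME4 lies farthest left at -3.69, -2.75 and -3.03, and PSMB10 lies right of zero in each species.

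In the alpha ring, each of the 7 alpha genes was called higher in muscle in cattle and in goat, with medians of -1.83 and -1.89, and 3 of 6 were called in sheep, where the median was -0.74. PSMA1 lies on cattle chromosome 15 (38213868 to 38226753, plus strand, ARS-UCD1.2) and encodes one of the subunits of this ring. Its level in cattle brain A, B and C was 20.8, 21.2 and 21.7 CPM and in cattle muscle 104, 94.7 and 116 CPM. In sheep it was 33.2, 36.1 and 27.3 in brain and 81.9, 80.5 and 91.7 in muscle, and in goat 41.2, 61.1 and 47.8 in brain and 174, 223 and 243 in muscle. No brain library reached any muscle library of its species. The difference was -2.30 ± 0.14 in cattle (adjusted p = 1.33e-06), -1.39 ± 0.26 in sheep (0.00463) and -2.09 ± 0.26 in goat (0.000118).

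PSMA2, another subunit of the ring, had the second largest difference of the alpha genes over the 3 species. Its cattle levels were 19.8, 20.4 and 20.7 CPM in brain and 86.7, 73.2 and 85.4 in muscle, its sheep levels 32.6, 42.9 and 25.5 against 82.0, 87.9 and 74.3, and its goat levels 50.3, 72.3 and 50.7 against 202, 248 and 228. Here too the groups did not overlap in any species, and the differences were -2.01 ± 0.13, -1.27 ± 0.30 and -1.97 ± 0.25. In cattle PSMA2 shares 12.9% of its exonic bases with C4H7orf25 on the same strand. PSMA3 was also called in all 3 species (-1.68, -0.74 and -1.87), with sheep at the edge of the threshold (adjusted p = 0.0493). PSMA4, PSMA5 and PSMA7 were called in cattle and goat and not in sheep (-0.75, -0.69 and -0.56), and PSMA6 was 3.076-fold higher in muscle in cattle and 3.995-fold in goat.

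The constitutive beta ring showed smaller differences. All 7 genes were called higher in muscle in cattle (median -1.32) and in goat (median -1.26), and none of 7 was called in sheep (median -0.26), where 6 of the 7 had overlapping groups. Of the catalytic subunits, PSMB5, which carries the chymotrypsin-like activity, measured 49.1, 51.6 and 46.3 CPM in cattle brain and 113, 107 and 148 in cattle muscle, a difference of -1.32 ± 0.16 (adjusted p = 0.000112). In goat PSMB5 measured 74.8, 96.0 and 106 in brain and 142, 132 and 198 in muscle (-0.77 ± 0.26, adjusted p = 0.0273). In sheep brain it measured 71.1, 76.4 and 123, and in sheep muscle 132, 112 and 110, so that brain C lay among the muscle libraries (-0.39 ± 0.30, adjusted p = 0.325).

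PSMB6, with the caspase-like activity, was 1.998-fold higher in muscle than in brain in cattle (adjusted p = 0.000497), measured 1.998 times the brain mean in sheep muscle without passing the test (adjusted p = 0.0544), and was 3.187-fold higher in goat muscle (adjusted p = 0.000876). PSMB7, with the trypsin-like activity, had the smallest difference of the ring over the 3 species, -0.73 ± 0.14 (adjusted p = 0.000179). PSMB3, a structural subunit, had the largest, -1.37 ± 0.21 (adjusted p = 1.60e-05). The structural subunits PSMB1, PSMB2 and PSMB4 were called in cattle (-0.88, -1.54 and -1.58) and in goat (-1.26, -1.22 and -1.65). PSMB6 measured 26.6, 29.8 and 27.4 CPM in cattle brain and 57.6, 45.6 and 64.1 in cattle muscle, 64.6, 73.8 and 138 against 186, 206 and 161 in sheep, and 63.6, 76.02 and 76.7 against 176, 192 and 321 in goat. Its groups were separate in each species, with sheep brain C closest to muscle. PSMB7 measured 53.4, 58.8 and 59.3 CPM in cattle brain and 102, 82.95 and 102 in cattle muscle, 74.8, 75.3 and 135 against 115, 111 and 110.1 in sheep, and 77.96, 113 and 108 against 171, 210.3 and 257 in goat. Its groups were separate in cattle and goat and overlapped in sheep, where brain C lay above the muscle libraries.

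The 3 immune-inducible subunits did not move together. PSMB8, the counterpart of PSMB5, was low in cattle brain at 4.84, 3.54 and 2.62 CPM, beside 11.4, 8.77 and 9.38 in cattle muscle. In sheep it measured 13, 10.9 and 23.1 in brain and 20.7, 32.5 and 28.9 in muscle, and in goat 12.4, 11.04 and 9.12 in brain and 37.6, 34.2 and 89.0 in muscle. Groups were separate in cattle and goat, and sheep brain C lay within the sheep muscle range. The difference was called in cattle (-1.42 ± 0.26, adjusted p = 0.0012) and goat (-2.30 ± 0.40, adjusted p = 0.00101) and not in sheep (-0.81 ± 0.39, adjusted p = 0.127), and over the 3 species it was -1.55 ± 0.23 (adjusted p = 8.10e-06).

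PSMB9, the counterpart of PSMB6, lies beside PSMB8 on cattle chromosome 23 (7186813 to 7193342, with PSMB8 at 7173038 to 7176410, ARS-UCD1.2), in the class II region of the major histocompatibility complex. It had the lowest per-length level of the subunits in cattle brain, with 2.43, 2.32 and 0.595 CPM there and 5.23, 3.21 and 3.15 in cattle muscle (-1.11 ± 0.50, adjusted p = 0.0731). This call depended on the tool, with an adjusted p of 0.049 in DESeq2 and 0.0478 in limma-voom, and the difference was -0.66 (adjusted p = 0.101) without cattle brain C. Sheep levels were 5.81, 6.87 and 20.7 in brain and 15.1, 23.3 and 22.0 in muscle, and goat levels 4.93, 5.06 and 3.62 in brain and 24.6, 16.5 and 34.97 in muscle. The groups were separate in cattle and goat and overlapped in sheep (-0.85 ± 0.55, adjusted p = 0.236), and the goat difference was called (-2.48 ± 0.36, adjusted p = 0.000316). In sheep, 31.3% of the exonic bases of PSMB9 are shared with TAP1 on the other strand, and how reads there were assigned is not given in the sources used here.

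PSMB10, the counterpart of PSMB7, went the other way. It lies apart from the other immune-inducible genes, on cattle chromosome 18 (35417757 to 35421332, minus strand, ARS-UCD1.2). In sheep it measured 37.3, 44.5 and 131 CPM in brain and 15.4, 18.6 and 20.1 in muscle, so each brain library lay above each muscle library. In goat it measured 69.6, 57.1 and 97.6 in brain and 25.0, 21.2 and 63.6 in muscle, where muscle C lay within the brain range. In cattle the groups overlapped, at 19.3, 23.1 and 19.6 in brain and 21.1, 15.6 and 16.04 in muscle. Its difference was 1.98 ± 0.53 in sheep (adjusted p = 0.0204), 1.03 ± 0.43 in goat (0.0625), 0.23 ± 0.17 in cattle (0.239) and 1.04 ± 0.26 over the 3 species (0.00162).

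Single libraries decided some of these PSMB10 calls. Without goat muscle C the goat difference was 1.67 (adjusted p = 0.000817). Without sheep muscle A, B or C the sheep difference was 1.86, 1.98 or 2.04, with an adjusted p of 0.0828, 0.0731 or 0.0687, and without sheep brain C it was 1.18 ± 0.16 (adjusted p = 0.000422).

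**Figure D2:**
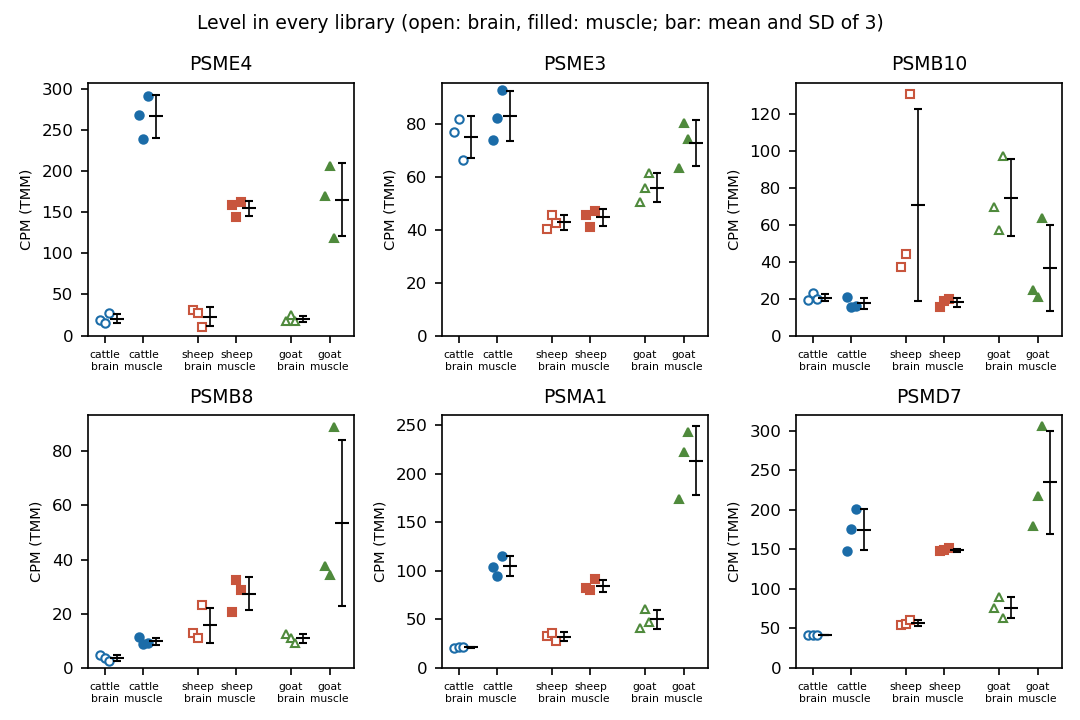
TMM-scaled level in CPM of 6 subunit genes in each of the 18 libraries, brain open and muscle filled, with the mean and SD of each group of 3. PSME4 lies between 10.2 and 31.8 CPM in the brain libraries and between 119 and 292 CPM in the muscle libraries. PSME3 overlaps between the tissues in cattle and sheep, and in goat each muscle library lies above each brain library. PSMB10 is higher in sheep brain. In goat its brain mean is higher too, but muscle C lies within the brain range and the difference was not called.

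Ratios within a library need no scaling between libraries, and they set each immune-inducible subunit against the constitutive one it replaces. They were taken from levels per length and tested over the 9 brain and 9 muscle libraries with a two-sided exact permutation test of the tissue labels within species (8000 arrangements, smallest possible p = 0.00025), with adjustment over 5 ratios. The log2 ratio of PSMB10 to PSMB7 was -1.67, -1.54 and -1.79 in cattle brain and -2.47, -2.61 and -2.86 in cattle muscle. It was -0.74, -0.50 and 0.22 in sheep brain against -2.63, -2.32 and -2.19 in sheep muscle, and 0.62, -0.20 and 0.64 in goat brain against -1.99, -2.53 and -1.23 in goat muscle. Brain lay above muscle without overlap in each species, cattle included, and the mean difference was 1.76 (exact permutation p = 0.00025, adjusted p = 0.00125).

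The ratio of PSMB8 to PSMB5 differed in the opposite direction, by -0.67 (exact permutation p = 0.0102, adjusted p = 0.0171). It was largest in goat, with -2.14, -2.67 and -3.09 in brain and -1.46, -1.49 and -0.70 in muscle, while the groups overlapped in cattle and sheep. For PSMB9 to PSMB6 the difference was -0.38 (exact permutation p = 0.184, adjusted p = 0.229), and it was -0.17 without cattle brain C, the library with the lowest PSMB9. The summed levels of PSMB8, PSMB9 and PSMB10 over those of PSMB5, PSMB6 and PSMB7 had a log2 ratio higher by 0.97 in brain (exact permutation p = 0.0005, adjusted p = 0.00125). A sum follows its most abundant member, which in brain was PSMB10, and when the 3 subunits were given equal weight as a mean of log2 levels the difference was 0.24 (exact permutation p = 0.198).

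**Figure D3:**
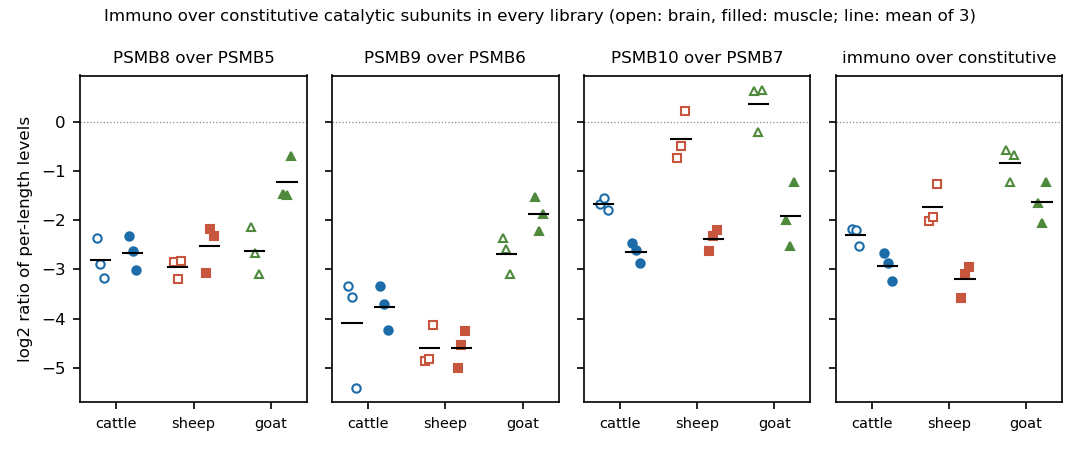
Log2 ratio of per-length levels of each immune-inducible subunit to the constitutive subunit it replaces, and of their sums, in every library (brain open, muscle filled, line at the mean of 3). The ratio of PSMB10 to PSMB7 is higher in brain in each species, by 0.98 in cattle, 2.04 in sheep and 2.27 in goat, while the difference in the ratio of PSMB8 to PSMB5 is -1.41 in goat.

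Markers of immune, endothelial and connective tissue cells also differed between the tissues. The summed level of the macrophage and microglia markers found (7 of 9 in cattle, 5 of 9 in sheep and in goat) was 202 to 330 CPM in cattle brain and 51.5 to 96.6 in cattle muscle, 219 to 260 in sheep brain and 46.0 to 56.3 in sheep muscle, and 112 to 258 in goat brain and 55.3 to 92.7 in goat muscle. Lymphocyte markers (9 of 9 found) summed to 16.8 to 28.9 CPM in cattle brain and 4.93 to 12.7 in cattle muscle, 18.1 to 21.7 and 30.9 to 36.3 in sheep, and 26.1 to 31.5 and 31.6 to 36.7 in goat. No macrophage or lymphocyte marker found was at 0 in a whole tissue. The macrophage sum followed CSF1R, at a mean of 129.5 CPM in cattle brain and 17.7 in cattle muscle (log2 3.27 ± 0.25 over the 3 species), while CD163 was called higher in muscle in each species (-3.07 ± 0.31, -2.07 ± 0.55 and -1.61 ± 0.39). In goat 1 of the 5 was called higher in brain and 2 in muscle, beside 34.1% and 26.8% of all genes. Over the 3 species these counts were 2 and 1 of 5, beside 39.8% and 35.6%. Endothelial markers were called higher in muscle in 5 of 5 over the 3 species (median -1.76), beside 35.6% of all genes. By species these were 2 of 5 in cattle, 5 of 5 in sheep and 5 of 5 in goat, beside 35.1%, 20.1% and 26.8%. Their sums were 80.99 to 185.6 CPM in cattle brain and 271.8 to 305.7 in cattle muscle. They were 193.1 to 323.2 and 1038 to 1093 in sheep, and 134.7 to 282.9 and 598 to 1017 in goat. Fibroblast markers had medians of -3.90, -2.08 and -3.73 in cattle, sheep and goat, with 1 of 5 listed at 0 in goat. Over the 3 species 3 of 5 were called higher in muscle and 1 in brain, beside 35.6% and 39.8% of all genes. In cattle these counts were 4 and 1 of 5, beside 35.1% and 40.4%. In sheep they were 4 and 0 of 5 (20.1% and 29.3%), and in goat 3 and 1 of 4 (26.8% and 34.1%). The part of these cells in the levels of PSMB8, PSMB9, PSMB10 and the other subunits was not tested.

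The ATPases of the base, which form the ring that unfolds substrates, were higher in muscle in 6 of 6 genes in cattle, 5 of 6 in goat and 2 of 6 in sheep. PSMC2 and PSMC6 were the genes called in each species. PSMC6 measured 35.5, 32.2 and 42.9 CPM in cattle brain and 123, 111 and 118 in cattle muscle, 53.6, 45.4 and 39.2 against 132, 110 and 136 in sheep, and 72.2, 129 and 57.4 against 230, 240 and 337 in goat. Each muscle library lay above each brain library, with differences of -1.67 ± 0.15, -1.45 ± 0.27 and -1.64 ± 0.34. PSMC2 measured 93.8, 88.0 and 97.7 in cattle brain and 205, 201 and 210 in cattle muscle, 90.8, 96.8 and 57.1 against 251, 241 and 255 in sheep, and 104, 111 and 116 against 290, 355 and 285 in goat. Its differences were -1.14 ± 0.13, -1.61 ± 0.29 and -1.49 ± 0.22.

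PSMC1 was the ATPase with the least uniform pattern. It was 66.9, 73.2 and 63.9 CPM in cattle brain and 180, 170 and 217 in cattle muscle (-1.47 ± 0.15). In goat it was 167, 196 and 194 in brain and 174, 215 and 319 in muscle (-0.35 ± 0.27), and in sheep 143, 150 and 345 in brain and 166, 156 and 160 in muscle (0.40 ± 0.39). Its groups were separate in cattle and overlapped in goat and sheep. Without sheep brain C the sheep difference of PSMC1 was -0.14 ± 0.12 (adjusted p = 0.311). PSMC3, PSMC4 and PSMC5 were called in cattle (-0.68, -1.35 and -1.67) and goat (-1.28, -1.30 and -1.10) and not in sheep (-0.47, -0.72 and -0.42).

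PSMD1 and PSMD2 are the large scaffold proteins of the base, and PSMD1 had the smallest difference of the base and lid subunits over the 3 species. PSMD1 stood at -0.43 ± 0.13 in cattle (adjusted p = 0.0135), -0.09 ± 0.23 in sheep and -0.55 ± 0.24 in goat, and PSMD2 at -1.09 ± 0.15, -0.45 ± 0.23 and -0.54 ± 0.22, where only cattle passed the test. The ubiquitin receptor PSMD4 was called in cattle (-1.48 ± 0.16) and goat (-1.72 ± 0.32) and stood at -0.49 ± 0.39 in sheep. Over the 3 species PSMD1, PSMD2 and PSMD4 were called at -0.39, -0.73 and -1.27.

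In the lid 7 of 8 genes were called higher in muscle in cattle, 8 of 8 in goat and 3 of 8 in sheep. PSMD11 measured 37.8, 36.6 and 35.3 CPM in cattle brain and 134, 150 and 166 in cattle muscle, 36.7, 35.3 and 21.9 against 111, 103 and 110 in sheep, and 48.5, 52.4 and 55.7 against 128, 159 and 108 in goat. The groups were separate in each species, at -2.04 ± 0.14, -1.79 ± 0.30 and -1.33 ± 0.23. PSMD7 measured 41.8, 42.0 and 41.3 in cattle brain and 148, 176 and 201 in cattle muscle, 54.1, 55.7 and 61.1 against 147, 149 and 151 in sheep, and 76.2, 89.2 and 63.4 against 180, 218 and 306 in goat. PSMD7 is the partner of PSMD14, the deubiquitinase of the lid, and its differences were -2.07 ± 0.16, -1.39 ± 0.24 and -1.62 ± 0.28.

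PSMD14 itself stood at -1.59 ± 0.15 in cattle, -0.60 ± 0.27 in sheep (adjusted p = 0.102) and -1.59 ± 0.27 in goat. PSMD8 was the lid gene not called in cattle, at 0.08 ± 0.17 (adjusted p = 0.694), and was called in goat at -1.01 ± 0.25. PSMD13 had the smallest called difference of the lid in cattle, -0.46 ± 0.15 (adjusted p = 0.0244), and 23% of its cattle exonic bases are shared with COX8B, a muscle form of a cytochrome oxidase subunit, on the other strand. PSMD6 was called in each species (-1.43, -1.14 and -1.28), and PSMD3 and PSMD12 in cattle and goat.

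The activators ranged from the largest difference of the set to the smallest. PSME4 encodes PA200, a large single-chain cap that acts without ATP, and lies on cattle chromosome 11 (36572842 to 36673067, minus strand, ARS-UCD1.2). It measured 18.9, 15.9 and 27.2 CPM in cattle brain and 269, 239 and 292 in cattle muscle. In sheep it measured 31.8, 27.2 and 10.2 in brain and 158, 145 and 162 in muscle, and in goat 18.3, 24.6 and 17.9 in brain and 170, 207 and 119 in muscle. The lowest muscle library lay far above the highest brain library in each species. Mean levels were 12.9-fold, 6.72-fold and 8.17-fold higher in muscle, at a log2 of -3.69 ± 0.23 (adjusted p = 2.00e-06), -2.75 ± 0.46 (0.00301) and -3.03 ± 0.29 (2.66e-05). Over the 3 species PSME4 stood at -3.19 ± 0.21 (adjusted p = 2.40e-10), which ranked 573 of 13051 genes from the muscle side.

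PSME4 also differed relative to other subunits of the same library, which does not depend on the scaling. Its log2 ratio to the alpha ring was -3, -3.32 and -2.63 in cattle brain and -1.11, -1.16 and -1.22 in cattle muscle, -2.86, -3.15 and -4.90 against -1.65, -1.76 and -1.63 in sheep, and -3.03, -3.19 and -3.14 against -1.62, -1.57 and -2.61 in goat. Brain minus muscle was -1.82, -1.96 and -1.19 in mean, without overlap in any species. This ratio was chosen after the values of PSME4 were seen and was given no test.

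PSME3, whose PA28 gamma cap is nuclear, was the subunit not called over the 3 species (-0.23 ± 0.11, adjusted p = 0.06). It measured 77.0, 81.9 and 66.6 CPM in cattle brain and 74.2, 82.3 and 92.9 in cattle muscle, 40.2, 45.7 and 42.5 against 45.6, 41.2 and 47.3 in sheep, and 50.5, 56.0 and 61.4 against 63.4, 80.6 and 74.3 in goat. The groups overlapped in cattle and sheep, and the differences of -0.15 ± 0.15, -0.06 ± 0.25 and -0.38 ± 0.22 were not called in any species. In cattle its exons share 138 bases with AOC2 on the same strand.

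PSME1 and PSME2 form the PA28 alpha-beta cap that is induced by interferon along with the immunoproteasome. PSME2 measured 8.45, 10.4 and 9.13 CPM in cattle brain and 35.6, 30.5 and 26.3 in cattle muscle (-1.72 ± 0.17), and 17.2, 20.2 and 20.7 against 66.9, 64.4 and 113 in goat (-2.08 ± 0.29). In sheep brain it measured 17.2, 18.5 and 39.3 and in sheep muscle 30.5, 29.6 and 33.1 (-0.31 ± 0.39). PSME1 measured 15.8, 18.1 and 24.5 against 29.0, 40.7 and 26.0 in cattle (-0.71 ± 0.23, adjusted p = 0.0196), 38.7, 43.6 and 79.8 against 102, 92.9 and 147 in goat (-1.08 ± 0.33, adjusted p = 0.0193), and 48.5, 58.1 and 110 against 54.9, 56.7 and 58.8 in sheep (0.34 ± 0.36, adjusted p = 0.462). Tissue groups were separate for both genes in cattle and goat and overlapped in sheep. The log2 ratio of summed PA28 to the summed constitutive catalytic subunits differed by a mean of 0.13 over the 3 species (exact permutation p = 0.454, adjusted p = 0.454). The species did not agree in direction. Brain minus muscle was 0.77 in sheep, where brain lay above muscle without overlap. It was -0.22 in cattle and -0.17 in goat, where the tissues overlapped.

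Sheep brain C changed the sheep result for most subunits. There, the median subunit lay 0.79 above the mean of libraries A and B on the log2 scale, beside a median absolute difference of 0.12 between A and B, with 27 of 37 subunits above both and 8 below both. PSMB9 was the most raised (1.71) and PSME4 the most lowered (-1.53). Without that library the sheep median was -0.91, and each constitutive beta gene was called higher in muscle, from PSMB7 at -0.58 ± 0.11 to PSMB6 at -1.42 ± 0.15. PSMB8, PSMB9 and PSME2 were then also called higher in muscle, at -1.20 ± 0.22, -1.67 ± 0.24 and -0.80 ± 0.13 (adjusted p = 0.0021, 0.000546 and 0.0012). PSMC1, PSMD1, PSME1 and PSME3 were the 4 not called, at -0.14, -0.14, -0.09 and -0.06. The summed neuron markers were 2747, 2231 and 1551 CPM in sheep brain A, B and C, the astrocyte markers 5129, 5654 and 4555, and the oligodendrocyte markers 3265, 3171 and 3938, and their part in the shift was not tested. In goat muscle C the median subunit lay 0.47 above libraries A and B, led by PSMB10 at 1.46, with PSME4 lowest at -0.66.

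**Figure D4:**
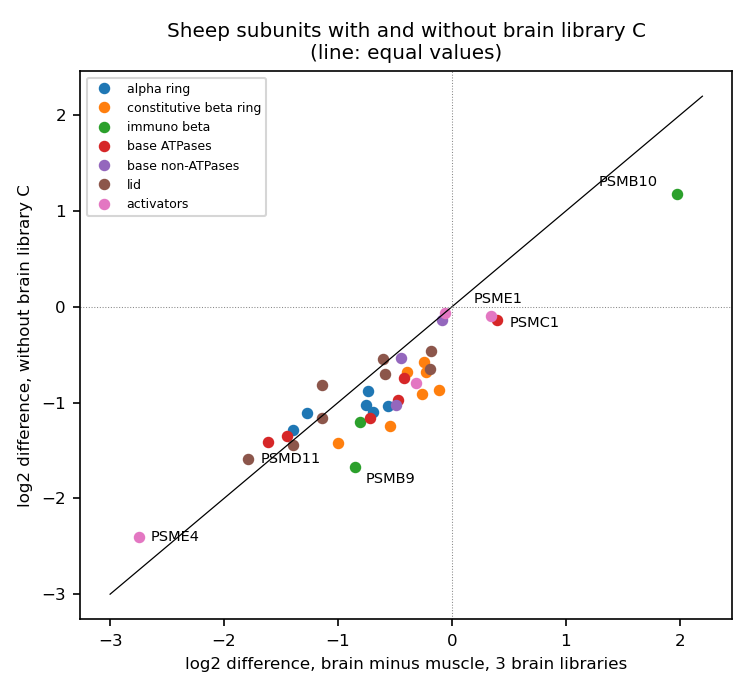
Log2 difference between sheep brain and sheep muscle for 37 subunit genes with all libraries (x axis) and without brain library C (y axis), coloured by role. Most points lie below the line of equal values, as for PSMC1 (0.40 and -0.14), while PSME4 (-2.75 and -2.40) and PSMD11 (-1.79 and -1.59) lie above it.

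The tissue difference itself was compared between species with the interaction term of the fit over the 37 matched subunits. It was called for 11 of 37, beside 25.6% of all genes. That share is close to the background, so the calls are a description of single genes and not a result about the subunits as a group. DESeq2 called 17. The 11 were PSMA1, PSMA3, PSMA4, PSMA5, PSMA7, PSMB4, PSMC1, PSMC5, PSMD3, PSMD14 and PSME2, and in each the sheep value was the highest of the 3, that is, the least toward muscle. PSMC1 had the lowest adjusted p (0.01), with -1.47 in cattle, 0.40 in sheep and -0.35 in goat. PSME2 followed (0.012) with -1.72, -0.31 and -2.08. PSMD3 stood at -1.55, -0.59 and -0.73, PSMC5 at -1.67, -0.42 and -1.10, and PSMB4 at -1.58, -0.23 and -1.65. PSME4 and PSMB10 were not called in this test (adjusted p = 0.205 and 0.0963).

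The libraries behind these calls were as follows for the members not shown above. PSMA3 measured 26.2, 28.5 and 30.3 CPM in cattle brain and 89.2, 80.5 and 103 in cattle muscle, 40.8, 43.4 and 54.8 against 78.3, 75.2 and 78.9 in sheep, and 49.99, 72.3 and 37.6 against 154, 167 and 265 in goat. Each muscle library lay above each brain library. PSMA4 measured 15.3, 15.2 and 18.97 CPM in cattle brain and 53.99, 50.7 and 71.1 in cattle muscle, 30.3, 26.3 and 45.5 against 55.3, 58.3 and 57.9 in sheep, and 36.6, 61.9 and 42.1 against 135, 149.5 and 155 in goat. Its groups were separate too, with sheep brain C the nearest to muscle in sheep. PSMA5 measured 20.3, 24.03 and 25.1 CPM in cattle brain and 76.2, 75.8 and 94.3 in cattle muscle, 38.7, 36.9 and 74.9 against 82.6, 77.1 and 82.6 in sheep, and 44.3, 74.3 and 54.7 against 164, 197 and 279 in goat. Sheep brain C lay just below the sheep muscle libraries. PSMA7 measured 44.2, 46.8 and 44.3 CPM in cattle brain and 146, 140.4 and 189 in cattle muscle, 58.8, 61.3 and 129 against 127, 115 and 125 in sheep, and 72.5, 96.04 and 80.8 against 183, 219 and 255 in goat. Sheep brain C lay above each sheep muscle library.

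The structural beta subunit PSMB4 measured 57.8, 58.1 and 59.2 CPM in cattle brain and 184, 135 and 205 in cattle muscle, 86.1, 97.2 and 191 against 147, 154 and 138 in sheep, and 98.2, 128 and 109 against 257, 268 and 526 in goat. Sheep brain C again lay above the sheep muscle libraries, and cattle and goat groups were separate. The ATPase PSMC5 measured 67.6, 75.2 and 55.6 CPM in cattle brain and 206, 192 and 233 in cattle muscle, 92.8, 105 and 171 against 189, 149 and 155 in sheep, and 99.01, 103 and 108 against 194, 215 and 254 in goat. Its sheep brain C lay within the sheep muscle range. The lid subunit PSMD3 measured 68.02, 66.1 and 61.1 CPM in cattle brain and 173, 175 and 223 in cattle muscle, 102, 97.1 and 123 against 165, 147 and 172 in sheep, and 102, 112 and 115 against 163, 199.8 and 183 in goat. Here the groups were separate in each species, sheep included. The deubiquitinase PSMD14 measured 21.7, 20.95 and 22.4 CPM in cattle brain and 68.7, 54.5 and 73.5 in cattle muscle, 35.9, 31.4 and 28.9 against 46.04, 43.8 and 56.2 in sheep, and 28.6, 46.3 and 27.7 against 96.2, 112 and 101 in goat. Its groups were also separate, and sheep brain C was the lowest sheep library.

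This set of 11 depended on single libraries. Without sheep brain C 12 of 37 were called, beside 35.2% of all genes, and 7 of the 11 were among them. The count fell to 3 without cattle muscle C or sheep muscle B, 4 without sheep muscle A or C, 5 without cattle brain A or B or goat brain A, 6 without cattle brain C or cattle muscle A and 7 without goat brain C, and it rose to 15 without sheep brain A.

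Levels were also compared between species within a tissue, with exonic length as an offset. The F test over the 3 species was called for 22 of 37 subunits in brain and 27 of 37 in muscle, beside 44.4% and 54.4% of all genes. By pair, 11 of 37 were called in brain for cattle against sheep (31.4% of all genes), 19 for cattle against goat (29.4%) and 11 for sheep against goat (22.1%). In muscle the counts were 14 (35.5%), 18 (41.3%) and 19 (29.0%). In the pairs with goat these differences, taken with the offset, moved with the lengths of the gene models. The offset subtracts the log2 length ratio from each difference. A negative correlation with that ratio is therefore largely fixed by construction and is no result about the subunits. PSMA5 is 4958 exonic bases long in goat, 988 in cattle and 940 in sheep, and PSME3 is 3564 in cattle, 934 in sheep and 750 in goat. Across the 37 members the Spearman correlation of the brain difference between cattle and goat with the length ratio was -0.86 with the offset and 0.10 without it, over points that share the same 6 libraries. It was -0.79 and 0.28 for sheep against goat in brain, -0.73 and 0.21 for cattle against goat in muscle and -0.88 and 0.06 for sheep against goat in muscle. For cattle against sheep it was weaker with the offset than without, at -0.26 and 0.42 in brain and -0.26 and 0.48 in muscle. For PSME3 the offset turned the sign, with cattle minus goat at -1.17 with it and 0.74 without it, each called.

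**Figure D5:**
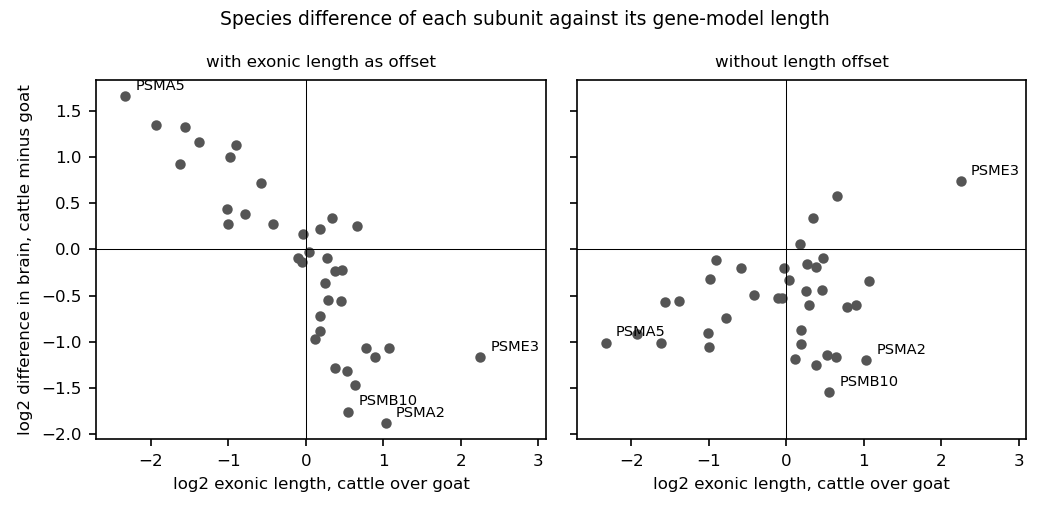
Log2 difference in brain between cattle and goat for 37 subunit genes against the log2 ratio of their exonic lengths, with length as an offset in the fit (left) and without (right). With the offset PSMA5, shortest in cattle relative to goat, lies at 1.66 and PSME3, with the opposite length ratio, at -1.17. Without it they lie at -1.01 and 0.74. The offset subtracts the plotted length ratio, so a falling trend on the left is largely fixed by construction.

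Between cattle and goat in brain 7 of 37 members were called lower in cattle both with and without the offset, beside 7.62% of all genes, and 4 were called in opposite directions, PSMA1, PSMA5, PSMD4 and PSME3, beside 0.942%. Among the 7, PSMB10 in brain was lower in cattle than in goat by a log2 of -1.76 ± 0.46 with the offset and -1.55 ± 0.45 without (adjusted p = 0.00805 and 0.0194). Between cattle and sheep in brain 8 of 37 were called lower in cattle in both fits, beside 15.3% of all genes, and these rested on sheep brain C. Without that library 0 of the 8 were called in both fits. Of the 37, 1 was then called lower in cattle in both, beside 10.2% of all genes. It was PSMA2, at -0.88 ± 0.19 with the offset and -0.64 ± 0.19 without (adjusted p = 0.00263 and 0.0163). PSMC3 was then called higher in cattle in both, at 0.91 ± 0.24 and 0.65 ± 0.23 (adjusted p = 0.00855 and 0.0353). PSMB10 went from -1.55 ± 0.46 (adjusted p = 0.0166) to -0.67 ± 0.36 (adjusted p = 0.176) with the offset, and from -1.58 ± 0.46 (0.0131) to -0.73 ± 0.35 (0.126) without it. PSMC1 stood at -0.32 ± 0.22 and -0.85 ± 0.21 without sheep brain C, and PSMD4 at -0.60 ± 0.25 and -0.84 ± 0.24, with and without the offset. PSMA2 was lower in cattle than in goat in muscle by -1.78 ± 0.22 and -1.06 ± 0.22. PSMB8 in muscle was lower in cattle than in goat by -2.12 ± 0.40 and -2.05 ± 0.39. PSME4 in muscle was higher in cattle than in sheep by 1.15 ± 0.33 and 1.09 ± 0.33 and higher than in goat by 1.07 ± 0.33 and 1.10 ± 0.33, while in brain it did not pass the test in any pair. The comparisons of a tissue share their cattle libraries.

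Per length the roles held different levels within a species, and their order was not the same in each species. In cattle brain the median was 23.4 CPM per kilobase for the alpha ring, 35.4 for the constitutive beta ring, 40.5 for the base ATPases, 22.0 for the lid and 3.39 for the immune-inducible subunits, and in cattle muscle 90.6, 90.9, 107, 63.5 and 9.11. In sheep the constitutive beta ring stood above the base ATPases, at 86.7 and 73.8 in brain and 120.9 and 110.1 in muscle. In goat it stood below them, at 70.5 and 78.7 in brain and 150.6 and 167 in muscle. PSMC3 was the highest ATPase in cattle brain (71.9), and PSMC1 was the highest in sheep brain (107) and goat brain (140.3). PSME4 stood at 2.88 CPM per kilobase in cattle brain and 37.1 in cattle muscle, at 4.12 and 27.7 in sheep, and at 3.57 and 29.2 in goat, so in brain it was the lowest activator and in cattle muscle the highest.

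The genes that act around the proteasome were read from the same fits. Over the 3 species 35.6% of all genes were called higher in muscle and 39.8% in brain. The lists below are short and were given no test as lists. Of the regulators of subunit transcription, 5 of 5 tested over the 3 species were higher in muscle, with NFE2L1, the factor that raises subunit genes when proteasome activity is short, at -1.53 ± 0.16, and its processing enzymes DDI2 and NGLY1 at -1.63 ± 0.31 and -1.23 ± 0.14. Of the other subunits and gatekeepers 6 of 7 were higher in muscle, among them the adaptor ECPAS (-2.30 ± 0.12), the cap-bound thioredoxin TXNL1 (-1.52 ± 0.12) and the receptor ADRM1 (-1.16 ± 0.17). Of 8 assembly factors 4 were higher in muscle, PSMG1, PSMG2, POMP and PSMD5 (-0.79, -1.77, -1.28 and -0.37), and 1, the base chaperone PSMD10, in brain (1.26 ± 0.15). Of 9 shuttle and extraction factors 7 were higher in muscle, with RAD23B at -2.54 ± 0.25, SQSTM1 at -2.05 ± 0.13 and VCP at -1.48 ± 0.11, and UBQLN4 was higher in brain (0.61 ± 0.21).

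Lists that touch the immunoproteasome were mixed, beside the same 35.6% of all genes called higher in muscle and 39.8% in brain. Of 5 antigen presentation genes 3 were higher in muscle, NLRC5 (-3.43 ± 0.18), the transactivator of class I genes, TAP1 (-1.68 ± 0.18) and TAPBP (-0.45 ± 0.15), and the chaperones CALR (0.95 ± 0.13) and PDIA3 (0.50 ± 0.12) were higher in brain. Of 7 interferon response genes 3 were higher in muscle, among them IRF1 (-1.43 ± 0.21) and CXCL10 (-1.31 ± 0.31), and 2 in brain, IRF7 (1.56 ± 0.34) and MX1 (0.77 ± 0.25). The medians of these lists over the 3 species were -1.53 for regulators of transcription, -0.77 for gatekeepers, -0.33 for assembly, -0.69 for shuttles, -0.45 for antigen presentation and -0.52 for interferon response, beside 0.07 for all genes.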

How the data were processed

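The deposited files hold raw read counts per gene, made by the authors on each species' own gene models with exon coordinates and exonic length, per the file headers. The submitters' processing notes name Trimmomatic 0.39, STAR 2.7.6 and featureCounts, with ARS-UCD1.2 for cattle; the sources used here give neither the sheep and goat builds nor strandedness or the handling of reads with several placements. Proteasome genes have processed copies, so their counts may be shared or lost.

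Cattle models were named by span overlap with RefSeq (at least 0.5 of the union), which named 35 members; PSME1, PSME2 and PSME3 were named by a rule chosen after the files were seen, at least 0.8 of exonic bases inside a RefSeq span. Partners needed 2 shared pairs of neighbouring exon lengths, or 1 shared exon length between matched neighbours; 33 members were matched by the stricter rule throughout. In a check on held-out matches the second rule returned the right partner in 99.7%, 99% and 99% of those it found for cattle with sheep, cattle with goat and sheep with goat.

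Counts of all genes were fitted with edgeR 4.0.16 in R 4.3.3 (filterByExpr, TMM, robust quasi-likelihood), within each species and over the matched genes with exonic length as offset, with Benjamini-Hochberg adjustment over all genes tested. Alternatives were RLE scaling, library totals, no filter, DESeq2 1.42.0, limma-voom of limma 3.58.1, a 2-fold minimum, first-pass matches, no offset, shared exon lengths, a replicate block and leaving out libraries. On simulated data with a log2 change of 2 the fits recovered 86% of changed genes in cattle (16217 genes) and 74% in goat (15584). They recovered 96% over the 3 species (12884), 0% in sheep (15404) and 83% in sheep without brain C (15602). With a log2 change of 1 the shares were 37%, 6%, 61%, 0% and 42% in the same order. There 100 genes changed per size and all others were equal between the tissues, while in the real data many genes differed. The shares therefore do not carry over to the subunits. The simulated run over the 3 species left out the length offset. Values in every library are given for up to 2 members per role called alike in each species, members called against their role, the immune-inducible subunits and their partners, the activators, members called in the interaction and those with the 3 highest species statistics in a tissue; others are given by range. The members and lists were chosen with earlier results of these data known. In 9 same-letter pairs of brain and muscle, 3 had a correlation of deviations over 0.1, so the letters were not taken to pair samples. Chi-square differences between libraries of a group were above counting noise, with medians per gene from 4.00 up. Some genes of the pathway lists are not reported here.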

Additional observations from a re-analysis of the deposited data

Results flagged for a closer look

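The tissue difference of 11 subunits differed between cattle, sheep and goat in edgeR's interaction test, with values by species given above for those described. The share was close to that of all genes, and the count was 17 with DESeq2, whose share over all genes is not given here. The adjusted p was 0.0375 for PSMA1, 0.0404 for PSMA3, 0.0375 for PSMA4, 0.04 for PSMA5 and 0.0387 for PSMA7 in the alpha ring. It was 0.0308 for PSMB4, 0.01 for PSMC1, 0.0218 for PSMC5, 0.0153 for PSMD3, 0.0233 for PSMD14 and 0.012 for PSME2. Without sheep brain C the adjusted p was 0.01 for PSMA1, 0.041 for PSMA7, 0.00282 for PSMC1, 0.0177 for PSMC5, 0.00644 for PSMD3, 0.0112 for PSMD14 and 0.0109 for PSME2, and it was above the threshold for PSMA3 (0.055), PSMA4 (0.0563), PSMA5 (0.079) and PSMB4 (0.0595). Without that library PSMA2, PSMD8, PSMD11, PSMD12 and PSME4 were called as well (0.0143, 0.0223, 0.0318, 0.0121 and 0.0117).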

How the results depend on the processing

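Scaling by library totals gave 3 members called higher in brain in cattle, 6 in sheep (with 1 in muscle), 1 in goat (with 20 in muscle) and 8 over the 3 species (with 16 in muscle). Its log2 differences turned positive for PSMD1, PSMD13 and PSME3 in cattle (0.25, 0.21 and 0.52), for PSMA3, PSMD1, PSMD13 and PSME3 in sheep (0.19, 0.86, 0.74 and 0.89), for PSMD3 and PSMD13 in goat (0.02 and 0.01), and over the 3 species for PSMB1 (0.11), PSMB5 (0.10), PSMB7 (0.23), PSMC1 (0.44), PSMC3 (0.11), PSMD1 (0.57), PSMD2 (0.23), PSMD8 (0.54), PSMD13 (0.46), PSME1 (0.44) and PSME3 (0.73). The all-gene median moved as given above. One goat member, PSMB10, was called higher in brain with no filter, with limma-voom, with the replicate block and without goat muscle C (1 in each), and 0 were with DESeq2. The interaction count was 17 with DESeq2, 2 with the replicate block and 19 without sheep brain C and goat muscle C. The shares of all genes called in these settings are not given here. Leaving out both libraries was an alternative chosen after seeing the data. It also gave 32 sheep members higher in muscle and 1 goat member in brain. A 2-fold minimum left 23 of the members higher in muscle over the 3 species. The summed immune-inducible ratio was 0.24 as a mean of log2 levels. Beyond library totals, whose shift of the all-gene median shows where zero moved, the cause was not tested.

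Leaving out 1 library at a time gave 31 to 33 members higher in muscle in cattle (0 in brain), 7 to 32 in sheep (0 to 1 in brain), 29 to 34 in goat (0 to 1 in brain) and 33 to 36 over the 3 species (1 in brain), 3 to 15 interaction calls, and 19 to 24 and 20 to 26 species calls in brain and muscle. The ratios ranged from 0.89 to 1.04 for the immune-inducible sum, -0.76 to -0.58 for PSMB8, -0.51 to -0.17 for PSMB9, 1.66 to 1.88 for PSMB10 and 0.05 to 0.19 for PA28. With the replicate block, cattle had 35 members higher in muscle and 0 in brain, sheep 8 and 1, goat 33 and 1, and the 3 species 35 and 1. In sheep each library correlated best with its own letter, a hint from the data and not the design. Without the length offset 16 and 22 members differed between species in brain and muscle, and lengths of shared exons gave the same by construction. In sheep the spread of brain C limits what can be called. The cattle-sheep brain differences without sheep brain C and names by the overlap rule alone were also chosen after seeing the data; the latter kept each count within 1.5 times.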

Other observations

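Within libraries of cattle and goat, 3 parts stood higher relative to the alpha ring in brain than in muscle. These were the constitutive beta ring, the base ATPases and the lid. In sheep the tissues overlapped for the base ATPases and the lid. The activator PSME4 went the other way, at -1.82 in cattle and -1.19 in goat for brain minus muscle. The log2 ratio of the constitutive beta ring to the alpha ring, both as mean levels per length, was 0.69, 0.72 and 0.61 in cattle brain and 0.06, -0.12 and 0.06 in cattle muscle. In goat it was 1.05, 0.84 and 1.31 in brain and 0.47, 0.40 and 0.81 in muscle, and in sheep 0.67, 0.71 and 1.49 in brain and 0.57, 0.58 and 0.43 in muscle. The base ATPases stood at 0.83, 0.80 and 0.66 relative to the alpha ring in cattle brain and 0.21, 0.23 and 0.12 in cattle muscle, at 1.14, 0.82 and 1.17 against 0.42, 0.38 and 0.42 in goat, and at 0.44, 0.38 and 0.57 against 0.41, 0.22 and 0.26 in sheep. The lid relative to the alpha ring was at 0.09, -0.03 and -0.06 in cattle brain and -0.62, -0.54 and -0.58 in cattle muscle, 0.25, -0.00 and 0.31 against -0.38, -0.33 and -0.64 in goat, and -0.10, -0.25 and -0.55 against -0.30, -0.39 and -0.31 in sheep. These ratios were chosen after the values were seen and carry no test.

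The genes for PSME1 and PSME2 lie on opposite strands of cattle chromosome 10, at 20998111 to 21026409 and 20993568 to 21007790 (ARS-UCD1.2), and the spans of their models overlap. PSME1 shares 3.36% of its exonic bases with DCAF11 and PSME2 1.08% with RNF31. Exonic bases were shared with another model for 6 members in cattle, 2 in sheep and 3 in goat.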
